A study of Mus musculus with 7 samples.

Results

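Neutrophils sorted from acetaminophen-injured mouse livers carried readable levels of transcripts for proteins that hepatocytes secrete into plasma. The set described here holds Alb, Ttr, Rbp4, Mup3, Apoa1, Apoa2, Apob, Apoc1 and Fgb. It was taken by gene symbol from a table of 16047 genes, and all 9 genes of the set were present. Levels are RPKM, read numbers scaled to transcript length and to the mapped reads of the library. Their level and spread over the libraries are given as a measure of liver RNA in the sorted samples. No library of hepatocytes was analysed here, and the source of these transcripts was not tested.

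The 7 libraries came from male C57BL/6 mice aged 8 to 12 weeks that all received acetaminophen (APAP) at 300 mg/kg and were examined 24 h later. Animals of the MC-21 group (3 libraries, replicates 2 to 4) were injected with 400 µL of medium holding 29 µg/mL of MC-21, an antibody to the chemokine receptor CCR2 that depletes Ly6Chi monocytes, from 12 h before APAP and then every 24 h. The PBS group (4 libraries, replicates 5 to 8) was injected with PBS. Livers were perfused and digested with collagenase, the parenchymal pellet was left out, and 50000 cells per liver of the gate CD11b+Ly6CloCX3CR1-GFP-Ly6G+ were sorted. The control injection was PBS, and the labels name no control antibody. The gate reads GFP from the Cx3cr1 locus, which needs a reporter allele. The labels give the strain as C57BL/6 with no reporter genotype, and the study used both C57BL/6J wild-type and Cx3cr1gfp/+ mice, so the genotype of these animals at that locus is not given. Each library is a bulk pool of sorted cells. No uninjured liver was analysed here.

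Depth, estimated from the step between low RPKM values, ran from about 1592000 reads in MC-21 replicate 3 to 3962000 reads in PBS replicate 8. Neutrophil markers led the libraries: all 16 genes of the neutrophil list were tested, S100a9, a calcium-binding alarmin of granulocytes, averaged 18381 RPKM, and Il1b, a pro-inflammatory cytokine, averaged 7178 RPKM. Liver endothelial markers were also present in every library, with Clec4g, a lectin of sinusoidal endothelium, at a mean of 1063 RPKM. Among the monocyte and macrophage markers 5 of 11 tested were lower in the MC-21 group at a limma adjusted p under 0.05, namely Ccr2, Fcgr1, C1qa, C1qb and C1qc. Over all 9594 genes tested, 41 were lower at that threshold.

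Hepatocytes make most plasma proteins, and they transcribe the genes for them from strong promoters under HNF1, HNF4 and C/EBP factors. Albumin carries fatty acids, hormones and drugs. Apolipoproteins coat the lipid particles that the liver exports, and fibrinogen is the precursor of the fibrin clot. Neutrophils are not known as a site of synthesis for albumin or transthyretin. APAP kills hepatocytes around the central vein, and neutrophils enter those areas.

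Promoter sequence from RefSeq (GRCm38.p6; the RPKM table itself uses mm9) was matched by symbol for 7 of the 9 genes; Apoc1 and Ttr had no entry. The 250 bases before the start were searched on both strands for 4 motifs. A gene was counted when any of its promoters held the motif, while the shares of all promoters count single promoters. Genes with more promoters had more chances to be counted, so gene counts and promoter shares are not in the same unit. The HNF1 motif GTTAAT was found in 2 of the 7 genes, Alb and Fgb, in 15 of 41 other hepatocyte plasma protein genes with an entry, and in 4.47% of all 15337 promoters. The C/EBP motif TTGNGNAA was found in Fgb, Mup3 and Rbp4, in 11 of the 41 genes and in 9.79% of all promoters. TATAAA was found in Apoa2, Apob and Rbp4, in 4 of the 41 genes and in 7.46% of all promoters. The HNF4 motif CAAAGTCCA was found in none of the 7 or the 41 genes and in 0.417% of all promoters. The motifs did not overlap in the promoters printed here. Alb and Fgb are printed because they hold the HNF1 motif and because, of the genes tested, their levels varied most between libraries on the log2 scale; capitals mark the motif letters, which in Fgb lie on the opposite strand, and both sequences are written on the strand of the gene. The Alb window is chr5:90460620-90460869 on the plus strand and the Fgb window is chr3:83049864-83050113 on the minus strand.
Alb promoter: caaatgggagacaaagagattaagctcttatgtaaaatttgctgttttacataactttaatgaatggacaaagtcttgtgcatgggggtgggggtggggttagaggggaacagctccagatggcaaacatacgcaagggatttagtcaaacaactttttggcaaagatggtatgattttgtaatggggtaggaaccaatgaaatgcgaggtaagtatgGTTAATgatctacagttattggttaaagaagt
Fgb promoter: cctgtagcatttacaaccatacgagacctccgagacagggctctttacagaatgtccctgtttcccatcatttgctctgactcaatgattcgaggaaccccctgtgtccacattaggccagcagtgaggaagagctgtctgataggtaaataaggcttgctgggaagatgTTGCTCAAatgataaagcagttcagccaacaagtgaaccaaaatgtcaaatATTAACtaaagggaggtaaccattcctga

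Among the carrier proteins, Alb itself lay in the upper part of the table. Alb (mm9, chr5:90889915-90905629, plus strand) measured 31.6, 85.1, 29.7 and 42.0 RPKM in PBS replicates 5 to 8 and 37.2, 53.3 and 23.0 RPKM in MC-21 replicates 2 to 4. PBS replicate 6 was the highest library and MC-21 replicate 4 the lowest, 3.69-fold apart, and the ranges of the groups overlapped. By mean RPKM, Alb ranked 1449 of 16047, next below Unc93b1 (43.2 RPKM), a chaperone of Toll-like receptors, and next above Psmb7 (43.1 RPKM), a proteasome subunit. These neighbours differ from Alb by less than its SD between libraries.

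Ttr, the carrier of thyroxine and of the retinol-binding protein, lies at mm9 chr18:20823751-20832825 on the plus strand and overlaps Gm16090 on the opposite strand; whether the counting used strand is not given in the sources used here, so reads of the pair cannot be told apart. Ttr measured 53.9, 80.2, 31.1 and 55.6 RPKM in PBS replicates 5 to 8 and 33.9, 64.8 and 29.2 RPKM in MC-21 replicates 2 to 4. Again PBS replicate 6 was highest and MC-21 replicate 4 lowest. Rbp4, which carries retinol out of the liver in a complex with transthyretin, measured 24.8, 40.7, 23.8 and 30.4 RPKM in PBS and 23.7, 28.1 and 17.2 RPKM in MC-21 (mm9 chr19:38191110-38199811, minus strand). Its highest and lowest libraries were those of Alb and Ttr. Mup3, a major urinary protein that binds pheromones, measured 21.9, 49.0, 21.6 and 47.3 RPKM in PBS and 28.1, 42.3 and 23.4 RPKM in MC-21 (mm9 chr4:61744510-61748376, minus strand). Mup3 fell into a high set of PBS replicates 6 and 8 with MC-21 replicate 3 and a low set of the rest. Its level is uncertain because 14.6% of the 50-base words of its transcripts occur in 18 other genes, closest Mup21, Mup4 and Mup5; no other gene of the set shared a word with another gene.

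The apolipoproteins held both the most abundant transcript of the set and the least. Apoc1, a small inhibitor of lipoprotein lipase that macrophages also make, measured 174.9, 232.0, 148.6 and 214.2 RPKM in PBS and 182.4, 255.2 and 146.7 RPKM in MC-21 (mm9 chr7:20274833-20278007, minus strand). It took 30.3 to 39.2% of the summed RPKM of the 9 genes, and MC-21 replicate 3 was its highest library. Apoa1, the main protein of high-density lipoprotein, measured 80.5, 126.1, 46.4 and 71.0 RPKM in PBS and 79.9, 70.6 and 55.3 RPKM in MC-21 (mm9 chr9:46036663-46038549, plus strand). PBS replicate 6 was highest and PBS replicate 7 lowest, so the PBS libraries spanned those of MC-21. Apoa2, the second protein of high-density lipoprotein, measured 55.3, 63.2, 63.9 and 66.3 RPKM in PBS and 51.1, 73.2 and 59.2 RPKM in MC-21 (mm9 chr1:173155185-173156510, plus strand). It was the flattest gene of the 8 tested, with a coefficient of variation of 11.8%. Its estimated read numbers ran from 60 to 136. The counting error was 12.9% at the lowest of these and smaller at the higher ones.

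Apob, the structural protein of very-low-density lipoprotein, was near the floor of the measurement (mm9 chr12:7984454-8023641, plus strand). Its levels were 0.052, 0.194, 0.027 and 0.091 RPKM in PBS and 0.181, 0.090 and 0.026 RPKM in MC-21. On a transcript of 13934 bases that is 2, 9, 1 and 5 reads in the PBS libraries, in the same order, and 9, 2 and 1 in the MC-21 libraries, each within 0.02 of a whole number. The libraries read the 3′ ends of transcripts, and the division by full length lowers RPKM of long transcripts; in RPM, which leaves out that division, Apob ranged from 0.36 to 2.71 and Alb from 47.0 to 173.8. The mean of 0.094 RPKM kept Apob out of the test, which required 1 RPKM.

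Fgb, the beta chain of fibrinogen and the clotting protein of the set, varied most of the 8 genes tested (mm9 chr3:82846169-82853725, minus strand). It measured 21.2, 90.3, 34.8 and 60.3 RPKM in PBS and 66.5, 63.4 and 45.8 RPKM in MC-21. PBS replicate 5 was lowest and PBS replicate 6 highest, 4.26-fold apart, while the MC-21 libraries lay close together inside that range. The SD of its log2(RPKM + 1) was 0.68, larger than that of 91.9% of genes tested; for Alb the SD was 0.61 (88.9% of genes), and for Apoa2 it was 0.17 (11.1%).

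**Figure D1:**
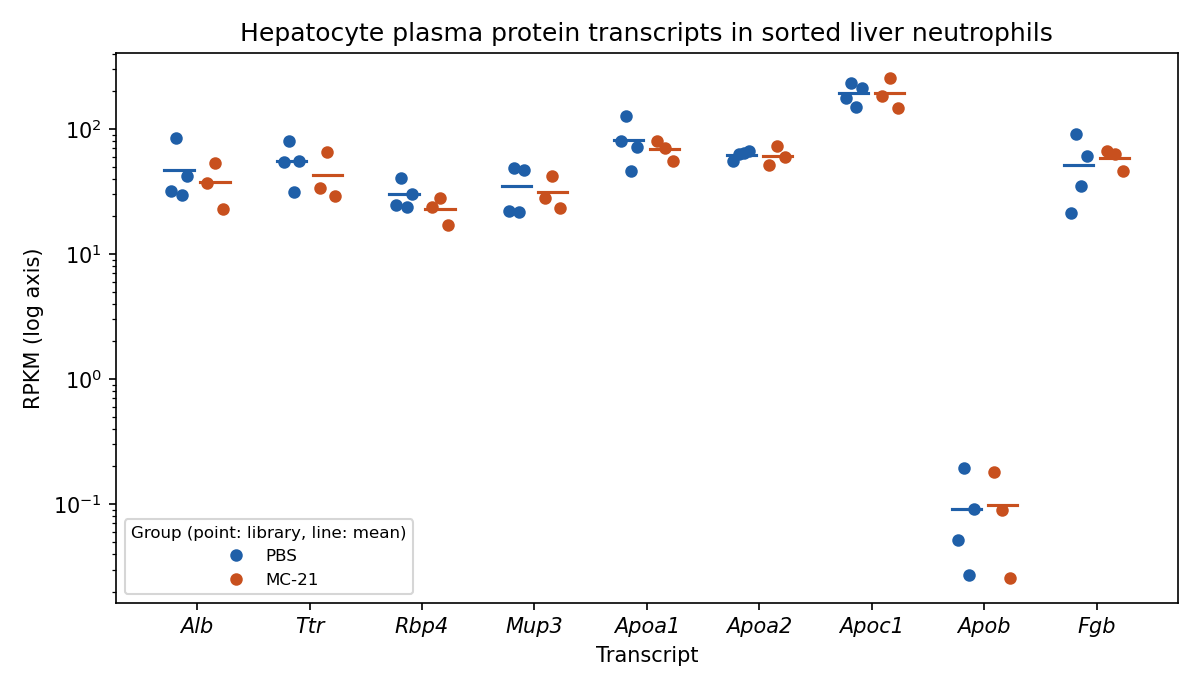
RPKM (log axis) of the 9 transcripts in 4 PBS and 3 MC-21 libraries, with 1 point per library and a line at each group's mean. Apoc1 is the highest in every library, at 146.7 to 255.2 RPKM, Apob lies below 0.2 RPKM, and the groups overlap for every transcript.

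Most of the set went up and down together across the libraries, whatever the group. Of the 8 genes tested, 6 were highest in PBS replicate 6 and 2, Apoc1 and Apoa2, in MC-21 replicate 3. Over all genes tested, PBS replicate 6 was the highest library for 13.3%. MC-21 replicate 4 was the lowest library for 4 of the 8 genes, against 27.8% of all genes tested. Summed over the set, RPKM was 464, 767, 400.0 and 587 in PBS replicates 5 to 8 and 503, 651 and 399.7 in MC-21 replicates 2 to 4. That is 0.0792 to 0.159% of the summed RPKM of all genes. The spread within PBS (1.92-fold between highest and lowest library) was as wide as over all libraries (1.92-fold), and within MC-21 it was 1.63-fold. Apoc1 and Apoa2 weigh heavily in the sum; without them, a choice made after seeing the data, the highest and lowest libraries lay 2.52-fold apart.

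**Figure D2:**
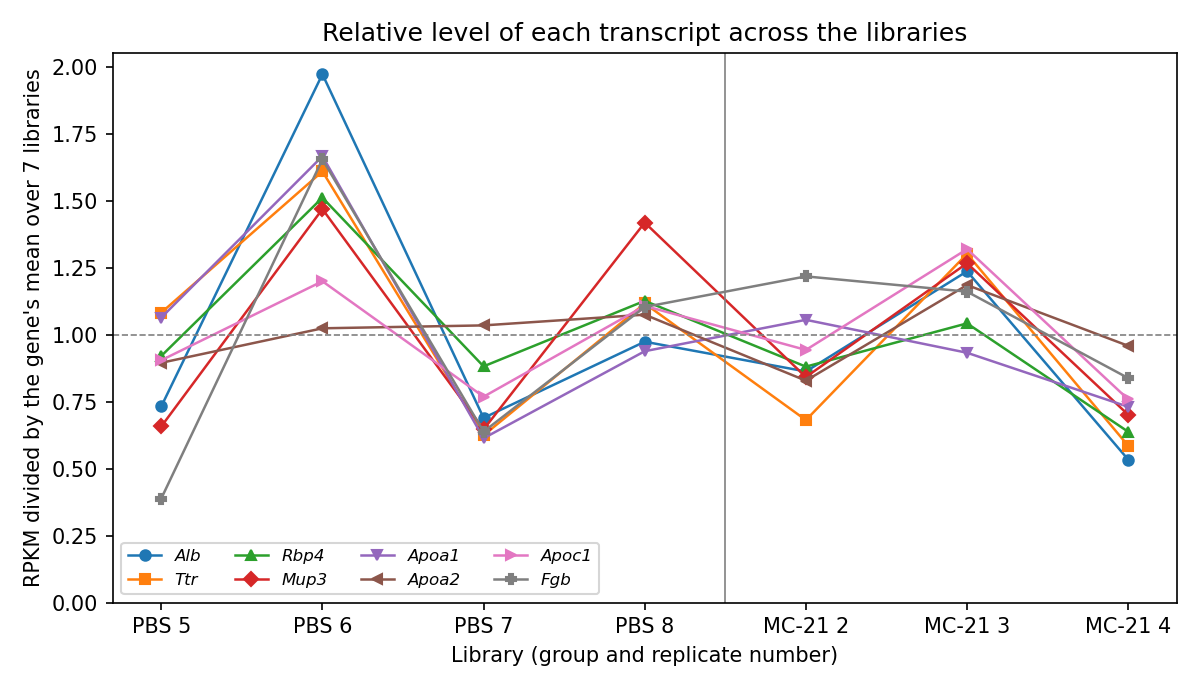
RPKM of 8 transcripts divided by each gene's mean over the 7 libraries, by library (vertical line: border between PBS and MC-21 libraries; dashed line: the mean). Alb, Apoa1, Ttr, Fgb, Mup3 and Rbp4 peak in PBS replicate 6, while Apoa2 stays near its mean.

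The summed RPKM of markers of the sorted cells ran the other way in several libraries. The summed RPKM of the neutrophil list was lowest, at 24532, in PBS replicate 6, where the secreted protein set was highest, and highest, at 49915, in MC-21 replicate 4, where the set was lowest. That sum is weighted to its most abundant genes, such as S100a9. By gene, 7 of the 16 were lowest in PBS replicate 6 (9.33% of all genes tested) and 2 were highest there (13.3%). In MC-21 replicate 4, 5 of the 16 were highest (9.55% of all genes tested) and 0 were lowest (27.8%). The set amounted to 3.13% of the neutrophil sum in PBS replicate 6, to 2.11% in PBS replicate 8, to between 1.13 and 1.51% in 4 libraries and to 0.801% in MC-21 replicate 4. MC-21 replicate 3 departed from this order, with the second highest sum of both (651 and 43055 RPKM) and the lowest depth. Neutrophil sums were 24532 to 38942 RPKM in PBS and 36647 to 49915 RPKM in MC-21. The part of these markers in the levels of the set was not tested. In bulk samples such as these, fewer cells of a type and less RNA per cell cannot be told apart.

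Other hepatocyte plasma protein genes also peaked mostly in PBS replicate 6. Of 50 other plasma proteins, 49 were in the table and 40 were tested, and PBS replicate 6 was the highest library for 31 of the 40. Their sum was 645, 1448, 760 and 926 RPKM in PBS replicates 5 to 8 and 858, 948 and 631 RPKM in MC-21 replicates 2 to 4. The most abundant were the protease inhibitor Serpina1e (mean 106.2 RPKM; its family shares sequence), the heme carrier Hpx (101.2 RPKM), the apolipoprotein Apoc2 (86.2 RPKM) and the iron carrier Trf (70.6 RPKM). Hepatocyte enzymes and cell proteins, which are not secreted, were less uniform: 12 of 26 tested were highest in PBS replicate 6 and 6 in MC-21 replicate 3. Their sum was 779 RPKM in PBS replicate 6 against 245 to 453 RPKM in the other libraries, of which Arg1 alone gave 267 RPKM in PBS replicate 6. Without Arg1, left out after seeing the data, the sum was 512 RPKM in PBS replicate 6, 396 RPKM in MC-21 replicate 3 and 198 to 359 RPKM in the rest. That list was led by Arg1 of the urea cycle (94.4 RPKM), which myeloid cells also make, Gstm1 (90.7 RPKM), the fatty acid binder Fabp1 (36.1 RPKM) and the alcohol dehydrogenase Adh1 (22.0 RPKM). Hepatocyte transcription factors were low: Hnf4a, a master regulator of hepatocyte genes, ranged from 0.645 to 0.944 RPKM, and 2 of 14 genes of its list, Cebpa and Nr5a2, were tested, while the nuclear receptor Nr1i3 was listed at 0 in every library.

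The zonal lists gave no common order. Pericentral hepatocyte genes, from the zone that APAP injures, summed to 58.3 to 79.8 RPKM and were led by the transaminase Oat (30.1 RPKM) and by Glul (14.0 RPKM), neither restricted to hepatocytes. Periportal genes summed to 13.9 to 31.5 RPKM, with the highest sum in PBS replicate 6. By gene, 2 of the 6 tested were highest in PBS replicate 6 and 2 in MC-21 replicate 3. The list was led by the immunoglobulin transporter Pigr (4.71 RPKM) and the lysosomal protease Ctsc (3.52 RPKM). Ctsc is not restricted to hepatocytes, as the study reported its expression in these neutrophils, lower in the MC-21 group. The summed RPKM of liver endothelial markers peaked in PBS replicate 5, at 4796 RPKM, and was 3197 RPKM in PBS replicate 6. That sum did not share the peak of the secreted protein set. By gene, 4 of the 12 were highest in PBS replicate 5 (16.0% of all genes tested). In MC-21 replicate 3, 5 were highest (11.3%), and in PBS replicate 6, 0 were (13.3%).

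**Figure D3:**
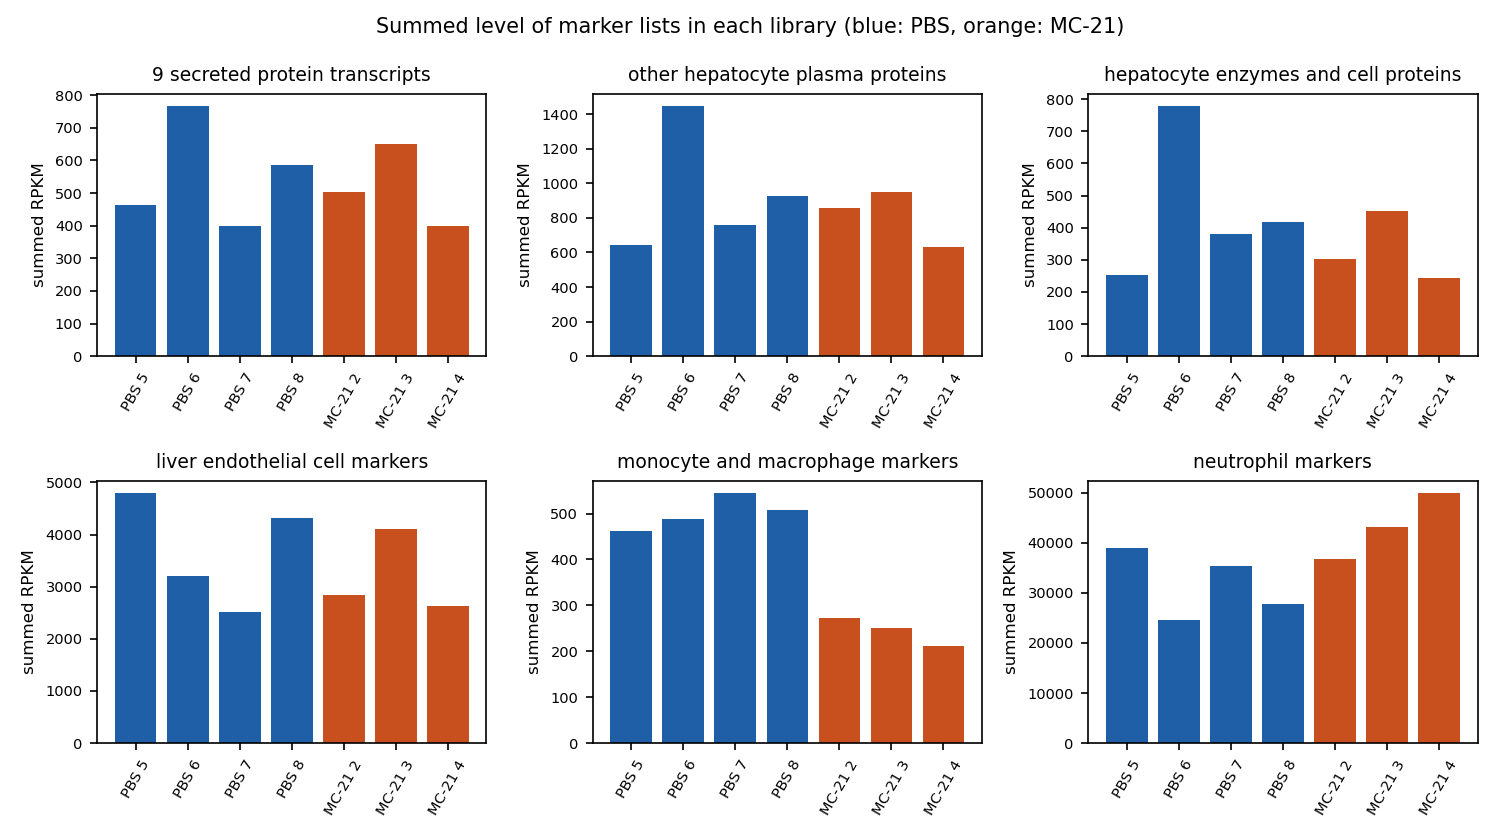
Summed RPKM of 6 gene lists in each library (bars; blue, PBS; orange, MC-21; each panel has its own axis from 0). The 3 hepatocyte lists are highest in PBS replicate 6, where the neutrophil sum is lowest, and the monocyte and macrophage sum is 462 to 545 RPKM in PBS against 211 to 274 RPKM in MC-21.

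Whether depletion of monocytes went with a different level of these transcripts was tested with limma on log2(RPKM + 1) over all 9594 genes whose mean reached 1 RPKM. None of the 8 genes tested had an adjusted p under 0.05, and none had an unadjusted p under 0.05; among all genes tested, 0.625% passed the adjusted and 14.7% the unadjusted threshold. None of the 9 genes had groups that did not overlap, against 13.3% of all genes tested. Rbp4 had the smallest adjusted p of the set: its difference, MC-21 minus PBS, was -0.36 on the log2 scale (SE 0.23, 95% interval -0.88 to 0.16, limma adjusted p = 0.511). For Alb the difference was -0.25 (SE 0.38, 95% interval -1.11 to 0.60, limma adjusted p = 0.795). Differences of Alb within that interval, in either direction, were not separated from the spread between libraries.

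The remaining genes lay on both sides of 0. Ttr differed by -0.38 (95% interval -1.14 to 0.39), Apoa1 by -0.16 (-0.82 to 0.50) and Mup3 by -0.09 (-0.86 to 0.67). Fgb had the highest estimate, 0.36, and the widest interval, -0.58 to 1.29; the estimate was 0.0063 without PBS replicate 5 and 0.69 without PBS replicate 6. Apoa2 had the narrowest interval, -0.39 to 0.32 around -0.04, and Apoc1 differed by 0.00 (-0.49 to 0.49). In an exact two-sided permutation test over all 35 assignments of libraries to groups, where the smallest possible p is 0.0286, single genes gave p from 0.257 for Rbp4 to 1.0 for Apoc1. The median difference was -0.13 over the 8 genes and -0.15 over all genes tested, 6 of the 8 being negative and 6655 of all 9594. Summed RPKM of the set was 555 ± 161 (SD, n = 4) in PBS and 518 ± 126 (SD, n = 3) in MC-21, a ratio of 0.934.

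**Figure D4:**
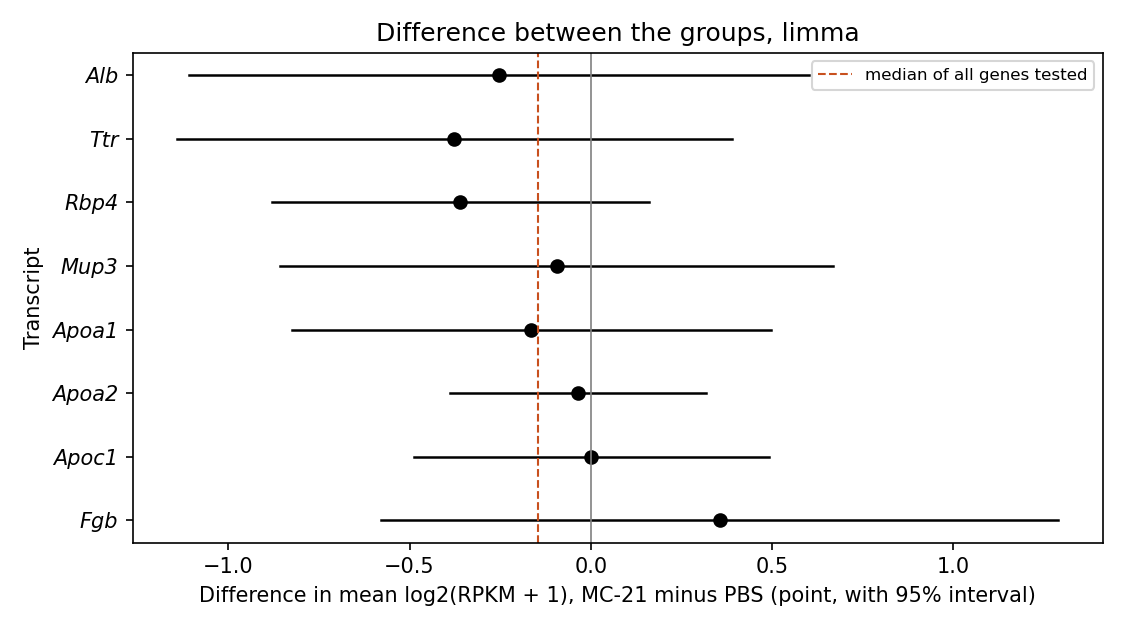
Difference in mean log2(RPKM + 1), MC-21 minus PBS, for 8 transcripts (points, with 95% intervals from limma); the dashed line marks the median of all genes tested, -0.15. Every interval includes 0.

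The other gene lists set this beside the rest of the sample. Of the 40 other hepatocyte plasma proteins tested, 30 were lower and 10 higher in MC-21, with a median difference of -0.27, and none had an adjusted p under 0.05 while 3 (F12, Mbl2 and Igf1) had an unadjusted p under 0.05. Over all 9594 genes tested, 6655 were lower in MC-21, with a median of -0.15. The adjusted limma threshold was passed by 0.625% of all genes tested and the unadjusted one by 14.7%. The 26 enzymes and cell proteins tested had a median of -0.22 with no adjusted call and 3 at an unadjusted p under 0.05, the 8 pericentral genes a median of -0.01 with none and 1, and the 6 periportal genes a median of -0.05 with none and 2. By contrast the monocyte and macrophage markers had a median of -1.13, and the neutrophil markers had a median of 0.41 with 2 of 16 higher at an adjusted p under 0.05, the surface protein Cd177 and the formyl peptide receptor Fpr1.

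Acute phase plasma proteins, which the liver makes in larger amounts under inflammation, stood on the other side. All 14 tested were higher in MC-21, against 2939 of all 9594 genes tested, with a median difference of 0.66. None had an adjusted p under 0.05 by limma. An unadjusted p under 0.05 was met by 3 (14.7% of all genes tested), namely Saa3, Serpina3n and C3. Of these, Serpina3n had the smallest limma adjusted p (0.0697). The most abundant of the list, Lrg1 (1199 RPKM), Lcn2 (1061 RPKM) and Hp (787 RPKM), are also made by neutrophils, and Saa3 (83.8 RPKM) by macrophages, so the list is not one of hepatocytes alone. Without 1 library at a time, 13 or 14 of the 14 stayed higher, with medians from 0.50 to 0.87, and 1 gene passed the adjusted threshold without PBS replicate 6.

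PBS replicate 5 showed how Fgb differed from Alb. In that library Alb was at 31.6 RPKM, close to PBS replicate 7 (29.7), but Fgb stood at 0.672 times Alb against 1.06 to 1.99 times in the other 6 libraries. The partner chains of fibrinogen behaved alike, with Fga at 8.07 RPKM and Fgg at 6.34 RPKM, both the lowest of the 7 libraries. The following genes were chosen after their values were seen: Hpx was 25.2 RPKM there against 60.7 to 213.8 RPKM elsewhere, the serum amyloid gene Saa1 1.79 against 24.2 to 145.9 RPKM, and Saa2 was listed at 0 against 22.8 to 117.1 RPKM. The orosomucoids Orm1 (5.02 RPKM) and Orm2 (5.70 RPKM) were also lowest in PBS replicate 5. These are acute phase proteins of the liver. PBS replicate 5 was the lowest library for 7 of the 14 acute phase genes tested, against 12.0% of all genes tested. That count includes Saa1, Saa2, Orm1 and Orm2, so it adds no separate evidence for them. The same library was the highest for 1 of the 14, against 16.0% of all genes tested. Apoa1 and Ttr went the other way relative to Alb, at 2.55 and 1.71 times Alb in PBS replicate 5, the highest of the 7 libraries for both.

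Dividing by Alb narrowed the spread of some genes and widened that of others. Rbp4 went from 2.37-fold between the highest and lowest library to 1.67-fold, Ttr from 2.75-fold to 1.87-fold, Apoa1 from 2.72-fold to 1.93-fold and Mup3 from 2.27-fold to 1.96-fold. Fgb kept 2.96 of its 4.26-fold range. For Apoa2 the range grew from 1.43-fold to 3.46-fold, and for Apoc1 from 1.74-fold to 2.34-fold, with both ratios lowest in PBS replicate 6, at 0.743 and 2.73 times Alb. Alb itself was highest in PBS replicate 6, so a gene that did not peak there has a low ratio there by construction.

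**Figure D5:**
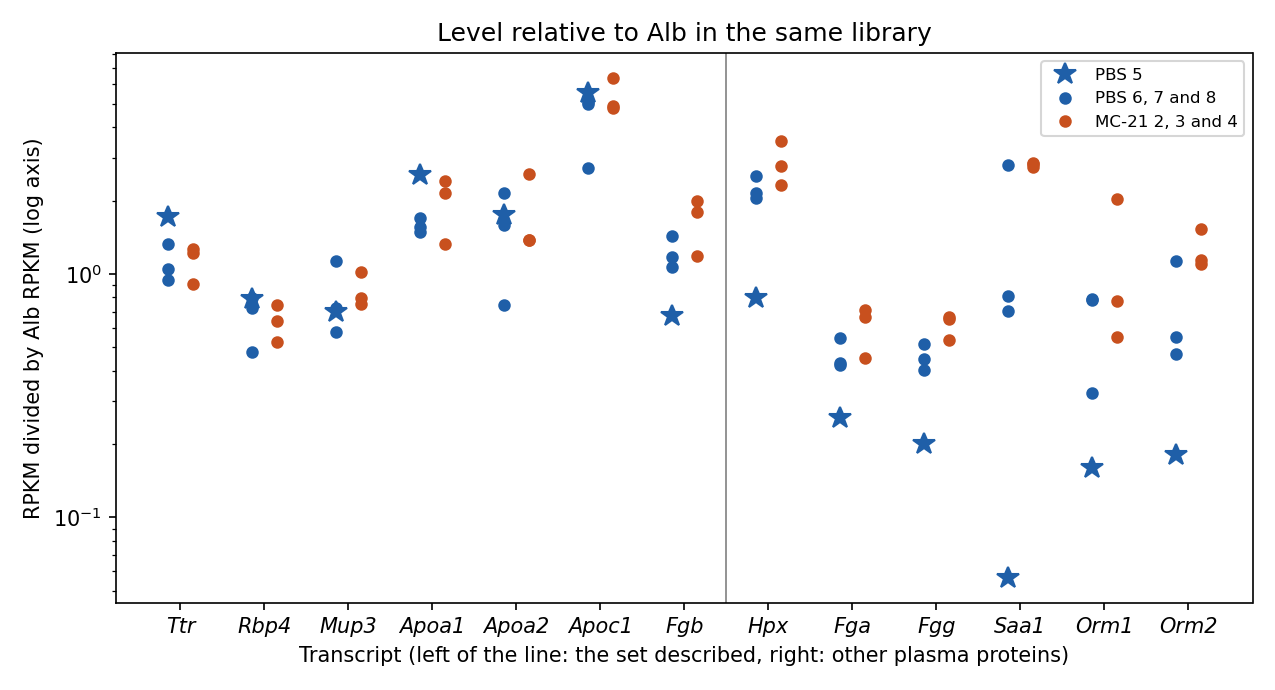
RPKM divided by the Alb RPKM of the same library (log axis), 1 point per library (stars, PBS replicate 5; blue, PBS; orange, MC-21), for 7 transcripts of the set on the left and 6 other plasma proteins on the right. In PBS replicate 5, Fgb, Fga, Fgg, Hpx, Saa1, Orm1 and Orm2 lie below every other library.

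Apoc1 and Apoa2, whose levels did not peak in PBS replicate 6, lie beside strongly read neighbours. Their peak in MC-21 replicate 3, the library of lowest depth, rested on about 198 estimated reads for Apoc1 and 60 for Apoa2. Counting error at 60 reads was 12.9%. In spread over the libraries Apoc1 was ordinary, with an SD of 0.31 on the log2 scale that exceeded that of 49.5% of genes tested. It starts 3.45 kb after Apoe on the same strand, and Apoe, a ligand of lipoprotein receptors that macrophages also make, averaged 1269 RPKM. Apoe was 1674, 1531, 1216 and 1578 RPKM in PBS and 876, 1202 and 803 RPKM in MC-21, so its groups did not overlap, yet the difference of -0.65 had an adjusted p of 0.145 by limma. Apoc1, at 192.4 ± 37.7 RPKM (SD, n = 4) in PBS and 194.8 ± 55.3 RPKM (SD, n = 3) in MC-21, did not share that order, nor the order of the monocyte and macrophage sum, which in MC-21 was 0.489 times its PBS mean. Apoa2 lies 3.19 kb from Fcer1g, the common Fc receptor gamma chain of myeloid cells, on the opposite strand with the 3′ ends facing. Fcer1g averaged 1497 RPKM and varied 1.19-fold between libraries, less than Apoa2 at 1.43-fold. Whether reads of these neighbours add to Apoc1 or Apoa2 was not tested. Apoa1 lies 2.47 kb from Apoc3 (45.8 RPKM), another apolipoprotein gene of hepatocytes.

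The genes whose log2 levels ran most like the mean of the set over the 7 libraries, by Pearson r, were Zfp407 (0.98), Kng1 (0.97), Bphl (0.97), Ssu72 (0.97), 2610002M06Rik (0.97), Serpina1a (0.96), Mbl1 (0.95) and Aurkaip1 (0.95). All of these were highest in PBS replicate 6, as was the mean of the set. Without the libraries farthest from the median, PBS replicate 6 and MC-21 replicate 4, their r was between 0.88 and 0.99. The genes were picked by r over all 7 libraries, so r over part of the same libraries is no independent check. Kng1, a kininogen, and Mbl1, a mannose-binding lectin, are plasma proteins of the liver, and Serpina1a is a protease inhibitor of plasma. The 5 hepatocyte lists held 0.981% of the genes tested. They held 2 of these 8 genes (25.0%), 17 of the 50 most alike (34.0%) and 25 of the 100 most alike (25.0%). This is a description over 7 libraries. All genes of a library share its depth and composition, and both differed between libraries.

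Partners of the set in lipoprotein and retinol transport were led by Apoe, described above. Of 17 genes, 9 were tested. A negative difference was found in 8 of the 9, against 6655 of all 9594 genes tested. At an adjusted p under 0.05, 1 of the 9 passed, against 0.625% of all genes tested. It was Lrp1, an endocytic receptor for Apoe-rich remnants, lower in MC-21. Its levels were 5.05, 6.90, 11.4 and 6.78 RPKM in PBS and 1.35, 2.19 and 2.08 RPKM in MC-21 (log2 difference -1.53, SE 0.26, limma adjusted p = 0.0412). Scarb1, the receptor for high-density lipoprotein, averaged 34.8 RPKM, the cholesterol exporter Abcg1 30.3 RPKM and Apobec1, which edits the Apob message, 26.3 RPKM. The multiligand receptor Lrp2 was listed at 0 in all libraries.

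Remaining cell lists were low or showed no adjusted call. Kupffer cell markers summed to 113 to 238 RPKM, led by the platelet and Kupffer cell lectin Clec1b (93.8 RPKM), with 6 tested and a median of -0.39. Their sum did not share that direction, at 157 ± 29 RPKM (SD, n = 4) in PBS and 180 ± 53 RPKM (SD, n = 3) in MC-21. The groups overlapped, and MC-21 replicate 3 had the highest sum. Endothelial markers (12 tested) had a median of -0.28, stellate and fibroblast markers (3 tested, with Reln listed at 0) -0.15, cholangiocyte markers (3 tested) -0.65, and erythroid genes (6 tested) 0.36. Platelet genes (5 tested) had a median of -0.01 but went both ways: their sum was 89.6 to 257 RPKM in PBS and 48.3 to 75.0 RPKM in MC-21, without overlap. Most of it was the platelet chemokine Pf4, at 75.0 to 243.6 RPKM in PBS and 36.7 to 60.9 RPKM in MC-21 (log2 difference -1.26, limma adjusted p = 0.194), while Itga2b, an integrin chain of platelets, was 2.30 to 3.26 RPKM in PBS and 3.56 to 4.32 RPKM in MC-21 (0.42, limma adjusted p = 0.362). None of these lists held a gene with an adjusted p under 0.05 by limma (0.625% of all genes tested). Unadjusted p under 0.05 was met by 3 Kupffer, 1 endothelial, 2 cholangiocyte and 1 platelet gene, against 14.7% of all genes tested.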

How the data were processed

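RNA of sorted liver neutrophils was sequenced as 3′ libraries on an Illumina NextSeq. The authors mapped reads to mm9 with HISAT 0.1.5, converted files with SAMtools and computed RPKM values per gene with Partek 6.6; the deposited values are RPKM, not counts. Division by transcript length lowers RPKM of long genes in 3′ libraries. Depth was estimated from the steps of low RPKM values (982 genes, of which 45.7% gave a depth within 1%; 73.3% of low values came within 0.1 read of a whole number), so read numbers are estimates with the longest gencode transcript and counts were not tested. For Apob alone all were whole.

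The 9594 genes whose mean reached 1 RPKM were tested with limma 3.58.1 (R 4.3.3; trended variance, no covariates) on log2(RPKM + 1), MC-21 minus PBS, and p-values were adjusted by Benjamini-Hochberg over every gene tested. This scale understates changes of low genes. Single genes were also tested by an exact permutation test. P-values measure the spread between these libraries, sorted per liver; the labels name no batch. The test was checked on simulated data with a log2 change of 2 in 200 of 9594 genes. It called 181 of the 200 and 12 unchanged genes. Changes as small as the differences of the set were not simulated, so the check does not tell how often those would be found.

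The 9 genes and 15 other gene lists were chosen with earlier results of these data known. Named were all 9 genes and, from the rest, genes among these: in each list the 4 with the highest mean RPKM, every gene with an adjusted p under 0.05 and genes at 0 throughout (where 4 or fewer), the 8 most like the mean of the set, and those next to Alb in level; others are named as chosen later or to spell out a count. Alternatives were another pseudocount (0.1), other filters (none, or 5 RPKM), centring, quantile normalization, no division by length, no variance trend and each library left out.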

Additional observations from a re-analysis of the deposited data

Results flagged for a closer look

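Among 32 groups of PBS values examined with Dixon's ratio (9 transcripts, 16 list sums and 7 other plasma proteins), 2 exceeded the 95% critical value for 4 libraries; chance gives about 1 in 20. The summed RPKM of the Kupffer cell markers stood apart in PBS replicate 7, at 113 RPKM against 169 to 173 RPKM in the other PBS libraries (ratio 0.936). The summed RPKM of the stellate cell and fibroblast markers stood apart in PBS replicate 6, at 15.4 RPKM against 8.67 to 9.55 RPKM in the other PBS libraries (ratio 0.836). In MC-21 replicates 2 to 4 that sum was 13.7, 7.66 and 6.14 RPKM. Of the 12 genes in that sum, 3 reached a mean of 1 RPKM. None of the 9 secreted protein transcripts exceeded the critical value. The largest ratio among them was 0.734, for Apoa2.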

How the results depend on the processing

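No paired analysis was possible because the groups share no replicate numbers. Under 14 alternatives, none of the secreted protein genes had an adjusted or an unadjusted p under 0.05, and the smallest adjusted p was 0.365; 99 of 112 differences kept their direction and 13 turned. With each library centred on its median, Apoa2 was 0.13 and Mup3 0.0689, and under quantile normalization Apoa2 was 0.0354. Leaving out 1 library gave -0.53 to 0.0708 for Alb, -0.40 to 0.0760 for Apoa1, -0.17 to 0.0839 for Apoa2, -0.21 to 0.19 for Apoc1, -0.33 to 0.0988 for Mup3, 0.0063 (without PBS replicate 5) to 0.69 (without PBS replicate 6) for Fgb, -0.72 (without MC-21 replicate 3) to -0.15 (without MC-21 replicate 4) for Ttr and -0.51 to -0.17 (without the same libraries) for Rbp4; the direction turned for Alb, Apoa1 and Mup3 without PBS replicate 6, for Alb and Mup3 without MC-21 replicate 4, for Mup3 without PBS replicate 8, for Apoa2 without MC-21 replicate 2, and for Apoc1 without PBS replicate 5 or 7 or MC-21 replicate 3. The ratio of the summed RPKM, MC-21 to PBS, ranged from 0.814 to 1.07. The highest and lowest libraries lay 1.63-fold apart without PBS replicate 6 and 2.52-fold without Apoc1 and Apoa2, both chosen after seeing the data. Over all genes, 60 had an adjusted p under 0.05 (41 lower, 19 higher), 74 after centring (30 lower, 44 higher, with the median of all genes moving from -0.15 to 0.02) and 6 with no filter on low values. Leaving out 1 library gave 9 (without PBS replicate 8) to 102 (without PBS replicate 6), with 14 without PBS replicate 7 and 19, 35 and 18 without MC-21 replicates 2, 3 and 4; the cause was not tested. With 1 to 9 estimated reads per library, no difference of Apob was detectable at this depth.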
